A study of Mus musculus with 24 samples.

Results

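MC38-MOCK#2, the MC38 line labelled FUT4 and MC38-FUT9 were compared as a series of rising Fut9 RNA, coded 0, 1 and 2. The order of the lines was chosen by the measured Fut9 values of these same samples. MC38 is a colorectal cancer cell line of C57BL/6 mice. The 3 lines gave 9 of the 24 samples in the data, 3 from each line. The genes followed were the 21395 of 52636 with at most 6 zeros among the 9. All 9 samples came from cells modified with CRISPR-dCas-VPR and grown with puromycin. In this technique a Cas9 that does not cut carries transcriptional activators (VPR) to the promoter of a chosen gene. MC38-MOCK#2 had no target gene and was harvested at passages 6, 7 and 8. The labels name FUT4 as the target of the second line (passages 7, 8 and 7) and FUT9 as that of the third (passages 6, 7 and 8). Each condition is 1 line, so no test measures the spread between independent lines. Tests of single steps use the spread between samples of a line, which may be technical. The test of the trend adds to it the departure of the middle line from a straight line. Fut9 RNA cannot be told apart from any other property in which the 3 lines differ. The other 15 samples, from MC38-WT, MC38-MOCK#1, MC38-CMAS KO, MC38-COSMC KO and MC38-DKO, did not enter the trend.

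FUT9 and FUT4 are α1,3-fucosyltransferases of the Golgi. They add fucose to N-acetyllactosamine, the repeated unit of many glycan chains, and thereby make the Lewis X antigen, a carbohydrate of stem cells, granulocytes and some carcinomas that lectins such as DC-SIGN recognise. GDP-fucose is the donor, and enzymes that build or cap the same chains, among them α2,3-sialyltransferases, act on the same acceptors.

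Fut9 (ENSMUSG00000055373, chromosome 4, 25609332 to 25800244 on the minus strand of GRCm38) set the order of the lines and was not tested. Values are given as normalized counts, which are read counts that the authors scaled for library size and rounded. Fut9 was at 0, 0 and 1 in the 3 MC38-MOCK#2 samples, at 209, 171 and 186 in the line labelled FUT4 (189 ± 19.1, SD, n = 3), and at 955, 641 and 676 in MC38-FUT9 (757 ± 172, SD, n = 3). The mean of MC38-FUT9 was 4.01 times that of the line labelled FUT4. Values of Fut9 in the other 15 samples lay between 0 and 7. Fut4 (ENSMUSG00000049307, chromosome 9, 14748320 to 14752393, minus strand), the gene named in the label of the middle line, was at 1, 0 and 1 there and at 0 in every other sample of the 24. The middle line is therefore called the line labelled FUT4 throughout. On the log2 scale most of the rise in Fut9 fell in the first step, since the line labelled FUT4 lay 7.23 above MC38-MOCK#2 and MC38-FUT9 a further 1.98 above the line labelled FUT4, both with a pseudocount of 1.

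Depth, estimated from the spacing of low values, was 8.18 to 12.1 M reads in MC38-MOCK#2, 9.23 to 13.1 M in the line labelled FUT4 and 13.5 to 16.2 M in MC38-FUT9, so that it rose with the coded order. Its part in the results was not tested. Samples 1 and 3 of the line labelled FUT4, both of passage 7, were the most alike pair of any line, with a chi-square per degree of freedom of 5.63 over 12531 genes, against 8.29 to 27.7 for the other pairs. They still differed by more than counting noise and were kept as separate samples. Leukocyte and endothelial markers were low. Summed over 7 leukocyte markers the samples held 25 to 64 normalized counts, with Cd3e and Itgam at 0 in all 9, and over 4 endothelial markers 2 to 19. Fibroblast markers were not low. Over 8 genes they summed to 6261 to 15561 in MC38-MOCK#2, 5520 to 7144 in the line labelled FUT4 and 1682 to 3034 in MC38-FUT9. Col3a1 made up most of the sum in MC38-MOCK#2 and the line labelled FUT4, and the other members did not all fall with it. Colon epithelial markers, with Cdx1 at 0 in all 9, gave a sum over 10 genes of 8 to 27 in MC38-MOCK#2 and 12 to 13 in MC38-FUT9, and of 270 to 481 in the line labelled FUT4, where 263 to 468 of it was Krt20.

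The slope of log2(normalized count + 1) over the 3 codes was tested with limma for 21394 genes, and called at a Benjamini-Hochberg adjusted p below 0.05. With 3 samples per line the slope is a straight average of the 2 steps, so a gene was taken as monotone only if its line means were also in order. Of the genes tested, 2483 (11.6%) were called, 1186 with a positive slope (5.54%) and 1297 with a negative one (6.06%). Among them 1000 rose with ordered lines (4.67% of all genes tested) and 1077 fell with ordered lines (5.03%), while 406 calls were not ordered. By their medians rising genes moved less than falling ones. The median slope was 0.34 per step among the rising and -0.51 among the falling, where over all genes tested it was 0.0048. The 9 samples did not overlap between neighbouring lines for 357 of the rising genes (1.67% of all genes tested) and 362 of the falling ones (1.69%). How calls divide between the directions depended on scaling. Of all called genes 47.8% had a positive slope as deposited, and 34.3% when every sample was rescaled to the same total, which left 739 rising and 1416 falling genes with ordered lines.

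The order of the lines by Fut9 RNA was not the most frequent among genes that separated all 3 lines. Genes whose lines overlap were left out of this count. Among genes whose samples did not overlap between any 2 of the 3 lines, the line labelled FUT4 lay in the middle for 750, MC38-MOCK#2 for 1230 and MC38-FUT9 for 457. Fitted with line as a factor, the first step, from MC38-MOCK#2 to the line labelled FUT4, gave 2253 genes higher (10.5% of those tested) and 2326 lower (10.9%). The second step, from the line labelled FUT4 to MC38-FUT9, gave 3312 higher (15.5%) and 3333 lower (15.6%). Both steps were called in the rising direction for 139 genes (0.65%) and in the falling direction for 157 (0.734%). The line labelled FUT4 departed from the midpoint of the other lines upward in 2874 genes (13.4%) and downward in 2878 (13.5%). Among the 2077 ordered calls, 1368 made between 20 and 80 percent of their whole change in the first step, 489 made less and 220 more, and the median share was 40.6%. The choice of genes enters these shares. Ordered means require both steps to have the same sign, and the slope test counts departure from the midpoint as spread.

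**Figure D1:**
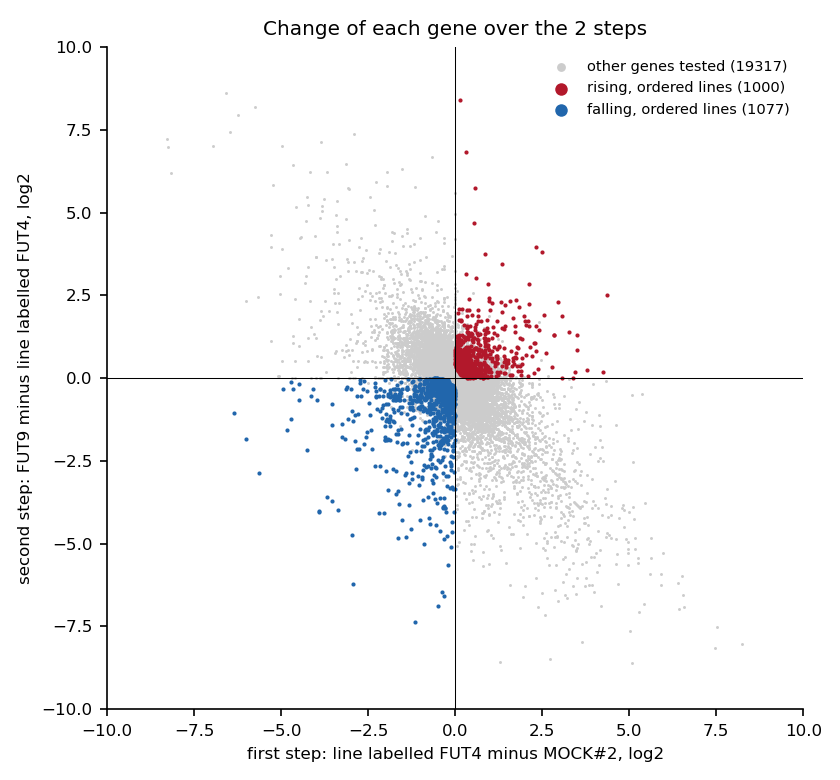
Each point is a gene, with its log2 difference between the line labelled FUT4 and MC38-MOCK#2 on the x axis and its log2 difference between MC38-FUT9 and the line labelled FUT4 on the y axis. The 1000 rising and 1077 falling genes with ordered lines lie in the upper right and lower left, and many of the other genes lie in the upper left and lower right, where the steps have opposite signs.

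The 12 rising genes of largest slope, taken among those with non-overlapping samples and a mean of at least 10, included genes of signalling, of the matrix and of the cytoskeleton. Plxna4 encodes a plexin that transmits semaphorin signals. It was at 2, 1 and 3 in MC38-MOCK#2, at 80, 46 and 55 in the line labelled FUT4 and at 256, 344 and 451 in MC38-FUT9, with a slope of 3.45 ± 0.24 log2 per step (SE, limma adjusted p = 3.7e-05). Both steps were called, and the other 15 samples held 3 to 34, so that the line labelled FUT4 and MC38-FUT9 lay above all of them. Dkk2, a secreted modulator of Wnt receptors, followed the same order from 1, 0 and 0 through 11, 10 and 8 to 35, 30 and 51 (slope 2.47 ± 0.23, adjusted p = 0.00025). Thbd, the anticoagulant receptor thrombomodulin, was at 1, 4 and 0, then at 26, 6 and 23, and then at 78, 69 and 94 (slope 2.61 ± 0.32, adjusted p = 0.001). The lowest values of Plxna4, Dkk2 and Thbd, and of Sox5, Trim66 and Tmem117 named below, are a few counts. The slopes of these genes therefore depend on the pseudocount.

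Among risers with more RNA in MC38-MOCK#2, Adamts9, a secreted metalloprotease that cleaves proteoglycans, went from 59, 44 and 71 to 166, 125 and 181 and then to 641, 606 and 959 (slope 1.82 ± 0.13, adjusted p = 5.5e-05). Inhba, the β subunit of activin A, a TGF-β family ligand, was at 29, 17 and 27, at 103, 59 and 90, and at 325, 318 and 754 in the same order of lines (slope 2.06 ± 0.19, adjusted p = 0.00019). Sdc3, a heparan sulfate proteoglycan of the cell surface, rose from 54, 57 and 95 through 114, 195 and 101 to 606, 775 and 731, and Sox5, a transcription factor of the Sox family, from 6, 6 and 5 through 16, 17 and 15 to 150, 181 and 223. For both of these genes the second step was the larger, 2.41 against 0.97 for Sdc3 and 3.43 against 1.35 for Sox5. Plcb4, a phospholipase C, showed the reverse, with steps of 2.14 and 0.93, and its MC38-FUT9 values of 118 to 142 lay inside the range of the other 15 samples (54 to 199). Trim66, Ank3, Tmem117 and Dock8 completed the 12, with slopes of 1.67 to 2.41. MC38-MOCK#2 lay below all of the other 15 samples in Adamts9, Plcb4, Trim66 and Ank3, and did not in the remaining genes of the 12. The choice of genes that rise most from MC38-MOCK#2 enters this result, and the share over all genes tested was not counted. Adamts9 shares 1381 exon bases with A730049H05Rik and Sox5 shares 1330 with Sox5os1, both on the opposite strand. Whether the counting used strand is not given in the sources used here. Several genes named below have such overlaps too. Among them are Cep295 (1765 bases with Gm16568), St3gal6 (1603 with Dcbld2), Twist2 (1477 with Gm29100) and Fdft1 (774 with Ctsb).

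**Figure D2:**
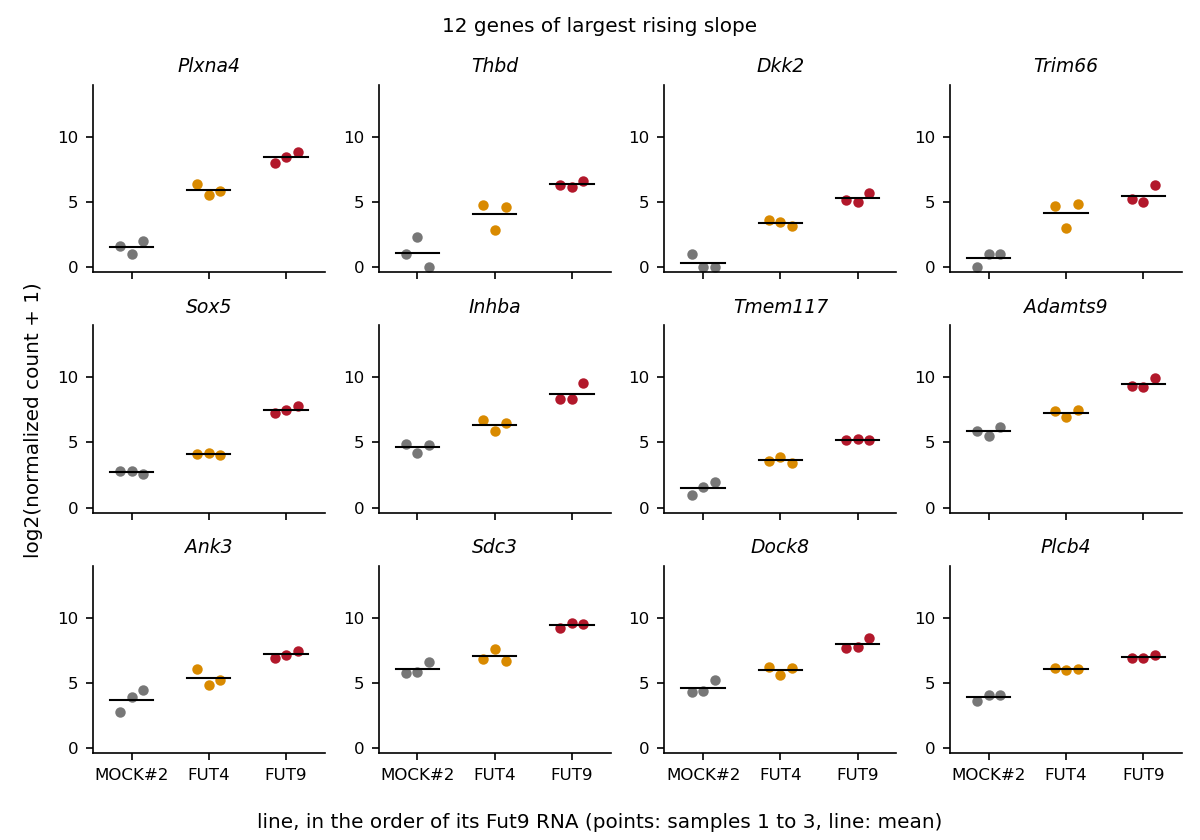
Each panel shows 1 of the 12 rising genes of largest slope, with log2(normalized count + 1) on the y axis and the 3 lines on the x axis. Points are samples and horizontal bars are line means. In every panel the 3 MC38-FUT9 samples lie above the line labelled FUT4, which lies above MC38-MOCK#2.

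The 12 falling genes of largest slope reached zero or a few counts in MC38-FUT9. Kcnj16 and Kcnj2, which encode inward rectifier potassium channels, are neighbours on the plus strand of chromosome 11 (110968033 to 111027968 and 111066164 to 111076821) and fell together. Kcnj16 was at 407, 557 and 826 in MC38-MOCK#2, at 73, 78 and 69 in the line labelled FUT4 and at 0 in all 3 MC38-FUT9 samples, which makes it at least 199-fold lower there than in MC38-MOCK#2, with a floor of 3 normalized counts for the line mean. Kcnj2 went from 225, 335 and 387 to 20, 19 and 20 and then to 1, 0 and 0. The limma adjusted p of the slope was 4.3e-05 for Kcnj16 and 3.9e-06 for Kcnj2. Another channel gene, Cacna1c, the pore subunit of an L-type calcium channel, dropped chiefly in the first step, from 747, 799 and 954 to 8, 15 and 14, and ended at 3, 2 and 3. Its values in the other 15 samples were 52 to 254, above the line labelled FUT4 and MC38-FUT9.

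Secreted and signalling products made up much of the remainder. Pappa, a protease that releases insulin-like growth factors from their binding proteins, was at 336, 307 and 469, at 5, 4 and 12, and at 0 in all of MC38-FUT9, at least 124-fold lower. In the other 15 samples Pappa was at 0 to 8, so MC38-MOCK#2 was the line that stood apart. MC38-MOCK#2 also lay above all of those 15 in every other gene of the 12 except Ptn. Examples are Kcnj16 (0 to 43 in the 15), Ptgs1 (10 to 120) and Vgll3 (16 to 96). The choice of genes that fall most from MC38-MOCK#2 enters this result. The share of all genes tested in which MC38-MOCK#2 lay above the 15 was not counted. Bmper, a modulator of bone morphogenetic proteins, went from 441, 370 and 695 to 25, 36 and 34 and then to 0, 1 and 3. Sema3f, a secreted semaphorin, fell evenly, from 346, 308 and 412 through 24, 32 and 25 to 1, 2 and 1, with steps of -3.67 and -3.60 (adjusted p = 1.4e-06 for the slope). Ptgs1, the cyclooxygenase COX-1, and Akr1c14, a hydroxysteroid dehydrogenase, fell over both steps as well, at 506, 587 and 713, then 87, 69 and 72, then 2, 3 and 1 for Ptgs1, and at 255, 299 and 231, then 22, 28 and 23, then 1, 0 and 1 for Akr1c14. Vgll3, a cofactor of TEAD transcription factors, fell from 535 to 941 through 52 to 68 to between 1 and 8.

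In Ptn, Nr5a1 and Sod3 most of the fall lay in the second step. Ptn, the growth factor pleiotrophin, was at 381, 460 and 528 in MC38-MOCK#2, at 353, 353 and 375 in the line labelled FUT4 and at 2, 5 and 2 in MC38-FUT9 (steps -0.33 and -6.58). Nr5a1, the steroidogenic transcription factor SF-1, gave 232, 273 and 209, then 193, 156 and 203, then 0, 2 and 2. Sod3, the extracellular superoxide dismutase, gave 629, 640 and 617, then 308, 199 and 361, then 0, 4 and 0. The first step was not called in any of the 3 (limma adjusted p = 0.44, 0.58 and 0.18), and the second was called in each (4.2e-07, 4.2e-06 and 1.3e-05). These 3 of the 24 genes of largest slope were no longer called when each line was coded by its mean log2 Fut9 (adjusted p = 0.099, 0.099 and 0.062). No sample left out in turn removed the call of any of the 24.

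**Figure D3:**
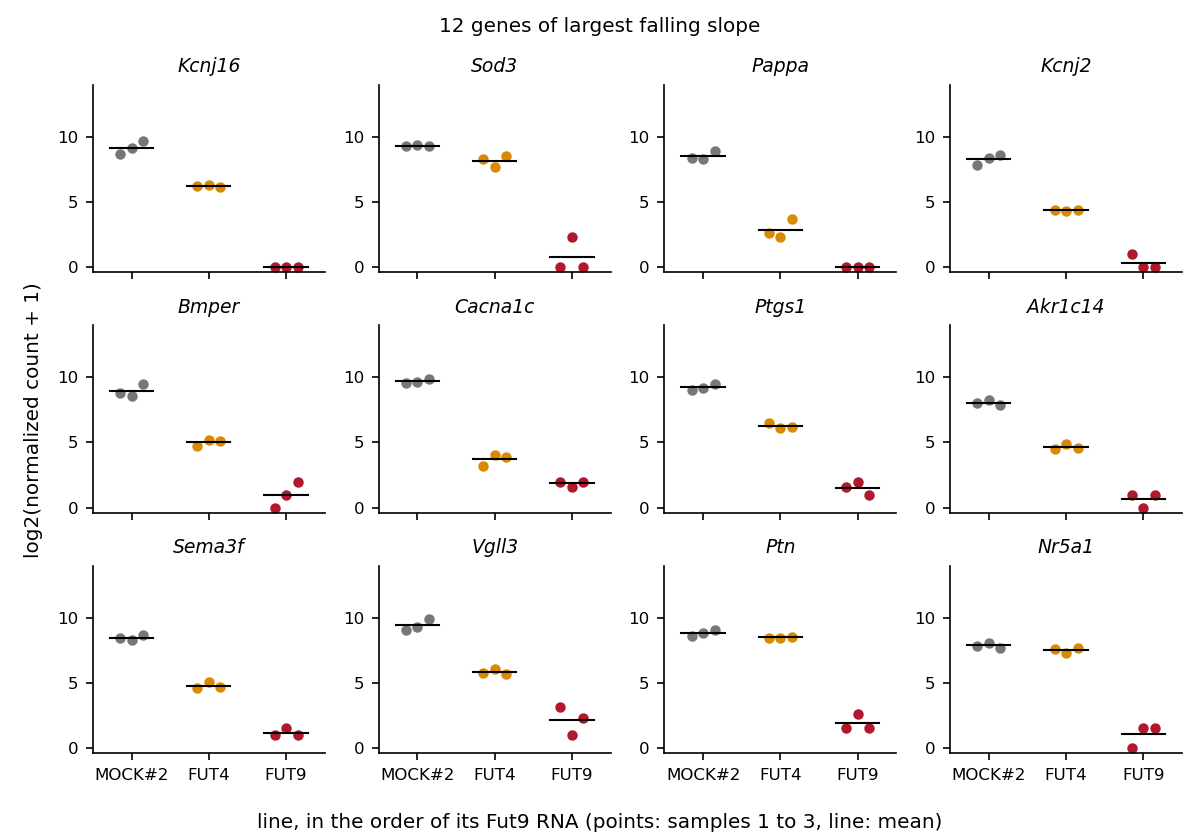
Each panel shows 1 of the 12 falling genes of largest slope, with log2(normalized count + 1) on the y axis and the 3 lines on the x axis. Points are samples and horizontal bars are line means. In MC38-FUT9 all 12 genes are at 8 normalized counts or fewer, while in Ptn, Nr5a1 and Sod3 the mean of the line labelled FUT4 lies no more than 1.16 log2 units below that of MC38-MOCK#2.

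Interferon-stimulated genes were, as a list, lowest in MC38-FUT9. Interferons switch on a set of antiviral genes, and many tumour cells keep a low level of this set without added interferon. Of 50 such genes, all tested, 25 fell with ordered lines and none rose, against 5.03% of all genes tested. The median slope of the list was -1.60 per step, and all 50 slopes were negative. Its fall lay in the second step, in which 37 genes were lower and 1 higher, against 15.6% and 15.5% of all genes tested. In the first step 2 were lower and 1 higher, against 10.9% and 10.5%, and the median first step was -0.26 against -2.89 for the second.

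The samples of MC38-MOCK#2 and of the line labelled FUT4 differed widely within their line in these genes. Oasl2, an oligoadenylate synthetase-like protein, was at 322, 226 and 1856 in MC38-MOCK#2, at 711, 146 and 775 in the line labelled FUT4 and at 15, 8 and 26 in MC38-FUT9 (slope -2.52 ± 0.57, limma adjusted p = 0.019). Oas3, which makes the 2-5A messenger that activates RNase L, was at 110, 79 and 716, at 156, 9 and 131, and at 5, 6 and 3. Both genes show MC38-MOCK#2 sample 3 as the highest and sample 2 of the line labelled FUT4 as the lowest of its line, both of passage 8. Oas1a (89, 120 and 448, then 166, 37 and 167, then 5, 2 and 5) and Ifi44 (101, 68 and 701, then 106, 14 and 107, then 2, 2 and 6) had the same spread. The first 2 lines overlap in all 4 genes, and the 3 MC38-FUT9 samples lie below every other sample of the 24. Leaving out MC38-MOCK#2 sample 3 reduced the falling genes of the list from 25 to 9, leaving out sample 2 of the line labelled FUT4 reduced them to 13, and leaving out MC38-FUT9 sample 1, 2 or 3 to 8, 7 or 10. Leaving out any of the other 4 samples gave 21 to 29. With each line coded by its mean log2 Fut9, which places the line labelled FUT4 nearer to MC38-FUT9, the count was 3.

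Averaged over the 50 genes, log2 levels were 6.20 to 8.56 in MC38-MOCK#2, 5.70 to 7.46 in the line labelled FUT4 and 3.81 to 4.29 in MC38-FUT9. The other 15 samples lay between 5.26 and 8.24. In 34 of the 50 genes all 3 MC38-FUT9 samples were below those 15, where the share over all genes tested was 7.36%. Not every member followed. Ifit2, a tetratricopeptide antiviral protein, fell in the first step and rose in the second (215, 267 and 367, then 114, 101 and 98, then 223, 231 and 241), and Eif2ak2, the kinase PKR, was at 777, 734 and 824 in MC38-FUT9 against 471 to 1800 in the other lines of the trend. Ifitm1, a membrane protein that restricts virus entry, was highest in the line labelled FUT4 (312, 293 and 607, then 2706, 2069 and 2821, then 2, 15 and 6).

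Upstream sequence of these genes is shown because the interferon-stimulated response element, a regulatory sequence of interferon-responsive promoters, has a known core. The letters GAAA, 2 bases of any kind and again GAAA were searched on both strands in the 250 bases before the RefSeq start of each gene (GRCm38.p6). They stood in 19 of the 38 list members that had an entry, and in 3.46% of 27025 gene symbols with one. Members that fell with ordered lines held them in 9 of 18 and the remaining members in 10 of 20, so the letters were equally frequent in both. A match is a description and not evidence of binding. The stretches below belong to the 4 falling members of largest slope that hold the letters, leaving out Oas1g, whose sequence is that of its neighbour Oas1a, and to B2m of the MHC class I list. Capitals mark the match, which begins with TTTC where it stands on the opposite strand, and in Oas1a and Gbp3 overlapping matches are run together.
Oas1a: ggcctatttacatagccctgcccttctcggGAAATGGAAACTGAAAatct
Oas3: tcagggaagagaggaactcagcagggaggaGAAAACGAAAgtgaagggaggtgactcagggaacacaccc
Ifit1: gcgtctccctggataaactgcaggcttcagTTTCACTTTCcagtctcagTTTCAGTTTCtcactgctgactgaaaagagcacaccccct
Gbp3: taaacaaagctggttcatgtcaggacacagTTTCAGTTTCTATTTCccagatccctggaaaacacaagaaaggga
B2m: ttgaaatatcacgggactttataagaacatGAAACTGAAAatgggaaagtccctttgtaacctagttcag
The stretch of Oas1a lies at chr5:120907526-120907575 on the minus strand and that of Oas3 at chr5:120777695-120777764 on the minus strand. Those of Ifit1 (chr19:34640755-34640843), Gbp3 (chr3:142559969-142560043) and B2m (chr2:122147518-122147587) are on the plus strand. Ifit1 was at 83, 65 and 429, then 163, 52 and 157, then 6, 3 and 10, and Gbp3, an interferon-induced GTPase, at 37, 24 and 215, then 69, 14 and 52, then 3, 1 and 4. In both genes the fall lay in the second step.

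Genes of MHC class I presentation, which load peptides cut by the proteasome onto class I molecules for display to CD8+ T cells, were also lower in MC38-FUT9. Of 20 genes, all tested, 10 fell with ordered lines and none rose, against 5.03% and 4.67% of all genes tested, and the median slope was -0.60. In the second step 14 were lower (15.6% of all genes tested) and none higher, and in the first 3 were lower (10.9%). Nlrc5, the transactivator of class I genes, fell over both steps, from 228, 205 and 397 to 124, 69 and 161 and then to 15, 18 and 11 (slope -2.05 ± 0.22, limma adjusted p = 0.00055). Tapbp, the peptide-loading chaperone tapasin, was at 2400, 2418 and 3958, at 2089, 1158 and 2136, and at 378, 304 and 477. Psmb8 and Psmb9 are inducible subunits of the immunoproteasome. Psmb8 was at 306, 291 and 515, at 431, 248 and 412, and at 34, 30 and 37, and Psmb9 at 52, 43 and 95, at 62, 16 and 52, and at 3, 5 and 10. The first 2 lines overlap in Psmb8 and Psmb9 but not in Tapbp, and in all 3 genes MC38-FUT9 lies below both of them and below the other 15 samples.

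The peptide transporter gene Tap1 fell with ordered lines (570, 468 and 1109, then 703, 361 and 691, then 184, 130 and 190). Tap2 was called but not ordered, since it was highest in the line labelled FUT4 by its mean (305, 269 and 555, then 584, 241 and 612, then 73, 73 and 79). The class I heavy chains H2-K1 and H2-D1 were not called on the trend (adjusted p = 0.13 for both). H2-K1 was at 3250, 2864 and 4471 in MC38-MOCK#2, at 6262, 3929 and 6217 in the line labelled FUT4 and at 1452, 1191 and 1620 in MC38-FUT9, with a second step of -1.92 (adjusted p = 0.00013). B2m, the light chain, changed less, from 1889, 1847 and 3007 through 2034, 1519 and 2048 to 1258, 1217 and 1249. H2-Q6 and H2-Q7, which fell, are near-identical copies whose reads may be shared, and stood at 21 or fewer counts. Of general chaperones of the endoplasmic reticulum, Calr, Canx and Pdia3 did not pass (slopes 0.14, 0.09 and -0.06). The falling count of the list was 6 without MC38-FUT9 sample 2 and 7 to 9 without any other single sample, and it was 5 with each line coded by its mean log2 Fut9.

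**Figure D4:**
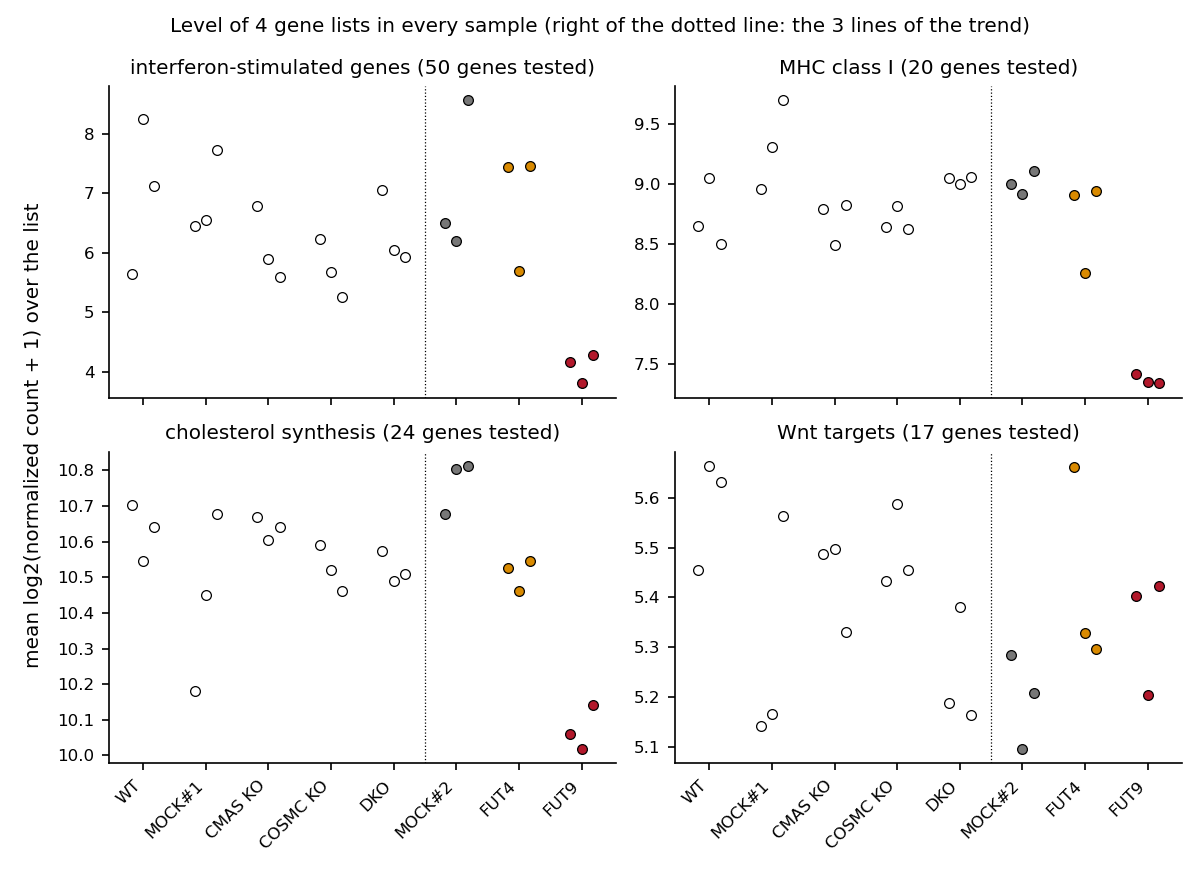
The y axis is the mean log2(normalized count + 1) over the tested genes of a list and the x axis the 8 lines, with 1 point per sample. Filled points right of the dotted line are the 3 lines of the trend. For interferon-stimulated, MHC class I and cholesterol genes the 3 MC38-FUT9 samples are the lowest of all 24, whereas for Wnt targets they lie within the range of the other lines. They are also the lowest of all 24 in lists not drawn here: sialyltransferases, acceptor enzymes, chemokines and cytokines, and p53 targets.

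Many genes of cholesterol synthesis fell, by small amounts and over both steps. SREBP2 (Srebf2) drives these enzymes when sterols are low. Of 24 genes, all tested, 13 fell with ordered lines (5.03% of all genes tested) and none rose, all 24 slopes were negative and the median slope was -0.27. The first step had 14 genes lower (10.9% of all genes tested) and 1 higher, and the second 10 lower (15.6%) and 2 higher. Dhcr7, the last enzyme of one branch, was at 1891, 1950 and 2056, at 1283, 1037 and 1295, and at 832, 786 and 902 (slope -0.61 ± 0.05, limma adjusted p = 0.00018). Mvd, which makes isopentenyl pyrophosphate, was at 1560, 1789 and 1658, at 1312, 1154 and 1425, and at 728, 756 and 783. Neither gene had overlapping lines. Pmvk, the kinase before Mvd, fell from 1060, 1207 and 1460 through 1096, 763 and 1172 to 550, 521 and 693. Most changes were small: 3 of the 13 genes kept an absolute slope above 0.5. Without any single sample the count of falling genes lay between 10 and 13.

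Not every gene of the list shared this order. Hmgcs1, the synthase at its start, was lowest in the line labelled FUT4 (3564, 4732 and 4855, then 1438, 1500 and 1436, then 2803, 2947 and 3006). Fdft1, squalene synthase, was called with a fall only in the second step (1735, 2029 and 1997, then 2067, 1992 and 2105, then 830, 901 and 904). The letters TCAC, 1 base of any kind and CCAC, a form of the sterol regulatory element, stood within 250 bases before the start of 1 of 16 members with an entry (1.22% of all gene symbols), which was Hmgcs1. The stretch lies at chr13:119690184-119690252 on the plus strand, with the letters in capitals.
Hmgcs1: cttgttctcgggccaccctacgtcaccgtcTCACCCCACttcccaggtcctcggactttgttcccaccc

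Among Wnt target and feedback genes 17 of 24 were tested, of which 6 rose and 2 fell with ordered lines, against 4.67% and 5.03% of all genes tested. The median slope of the list was -0.02. Besides Dkk2, the risers were Lef1 and Tcf7, transcription factors through which β-catenin acts, Ccnd1 and Myc, which drive cell cycle entry and growth, and Znrf3, a ubiquitin ligase that removes Wnt receptors. Ccnd1 went from 3119, 2937 and 3449 through 5123, 4625 and 5154 to 6297, 6709 and 6900 (slope 0.53 ± 0.05, limma adjusted p = 0.00019), and Myc from 1310, 1349 and 1182 through 1827, 2066 and 1808 to 2532, 3179 and 2444 (0.54 ± 0.06, adjusted p = 0.00039). The samples of neighbouring lines do not overlap in either gene. On the opposite strand Ccnd1 shares 1100 exon bases with LTO1 and Lef1 shares 1208 with Gm43352. Tcf7 moved mainly in the first step (101, 83 and 89, then 195, 151 and 179, then 225, 217 and 212), and Lef1 in the second (37, 49 and 35, then 57, 47 and 40, then 98, 122 and 121). Rnf43, the partner ligase of Znrf3, moved against it, at 20, 21 and 19, then 16, 11 and 12, then 2, 0 and 1. Axin2, a widely used target of the pathway, was at 15, 14 and 12, at 14, 12 and 9, and at 6, 14 and 11, and did not pass (adjusted p = 0.52). The count of rising genes was 6 without any single sample and under both other scalings, and 4 with each line coded by its mean log2 Fut9.

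**Figure D5:**
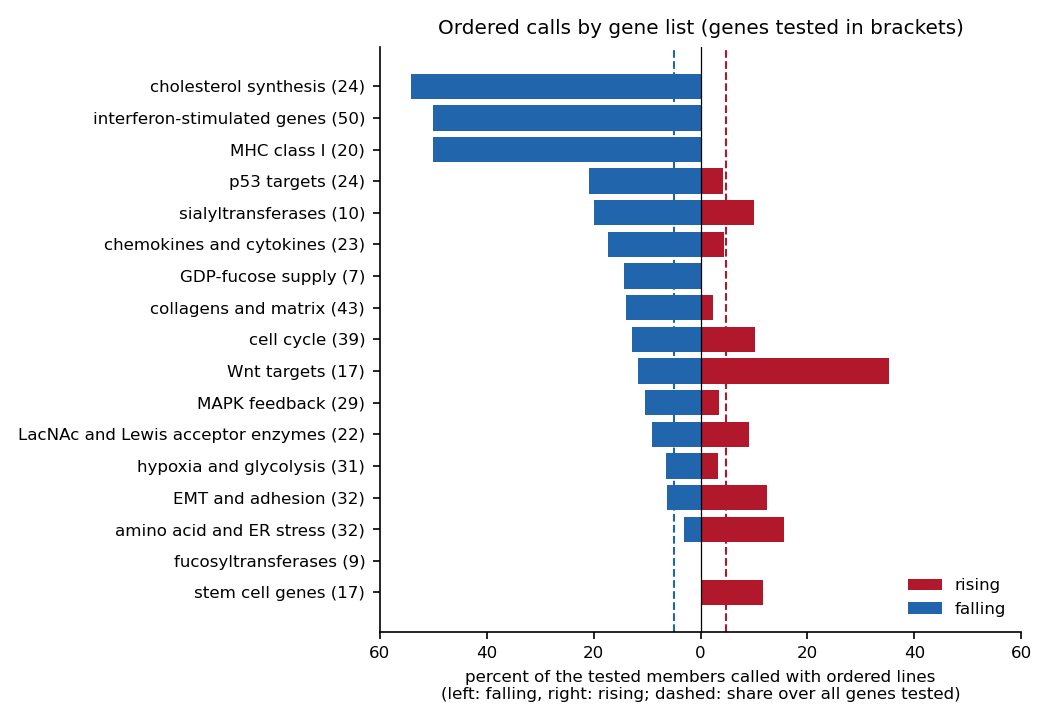
Bars give the percentage of the tested members of each list that were called with ordered lines, falling to the left and rising to the right, with the number of genes tested in brackets. The dashed lines mark the shares over all genes tested, 5.03% falling and 4.67% rising. Cholesterol, interferon-stimulated and MHC class I genes have the longest falling bars and Wnt targets the longest rising bar.

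Matrix genes gave 6 falling and 1 rising of 43 tested, against 5.03% and 4.67% of all genes tested, with a median slope of -0.17. Col3a1, a fibrillar collagen, was at 5601, 5020 and 13474, at 6160, 4918 and 6318, and at 166, 99 and 470. The other 15 samples held 24 to 322 of it, so the first 2 lines stood above them and MC38-FUT9 overlapped with them. A list of 8 fibroblast markers that includes Col3a1 summed to 6261 to 15561, 5520 to 7144 and 1682 to 3034 in the 3 lines, with Thy1 at 0 in all 9 samples. Col3a1 made up most of the sum in the first 2 lines, and Pdgfra (990, 910 and 1427) and Pdgfrb (671, 604 and 990) did so in MC38-FUT9. Of the 7 markers tested, 1 fell with ordered lines (5.03% of all genes tested). The first step gave 1 higher and 3 lower (10.5% and 10.9% of all genes tested). The second gave 4 higher and 2 lower (15.5% and 15.6%), with a median of 1.15. The part of fibroblasts in these values was not tested. The neighbour of Col3a1 on chromosome 1, Col5a2, was at 37, 65 and 164, then at 43, 21 and 22. It was at 0 in all MC38-FUT9 samples, at least 29.6-fold lower than in MC38-MOCK#2. Mmp3, a secreted metalloprotease, fell in the first step (29, 24 and 84, then 0, 0 and 3, then 0, 0 and 1). Sparc, a matrix protein that binds collagen, was the riser (356, 361 and 596, then 868, 607 and 921, then 1912, 2054 and 2309, adjusted p = 0.00033). Thbs1, thrombospondin, was called but not ordered, with its highest values in the line labelled FUT4 (345, 384 and 753, then 1256, 969 and 1225, then 2, 2 and 2). Its call was lost without MC38-MOCK#2 sample 3 or any MC38-FUT9 sample (adjusted p = 0.051 to 0.098).

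In the list of EMT and adhesion genes 4 rose and 2 fell with order of 32 tested, against 4.67% and 5.03% of all genes tested. Prrx1, a mesenchymal homeobox factor, rose from 398, 454 and 548 through 750, 721 and 753 to 1135, 1216 and 1344 (adjusted p = 0.00014), and Zeb2, a repressor of E-cadherin, from 418, 453 and 697 through 647, 473 and 593 to 1177, 1049 and 1247. Twist2 fell (2813, 2823 and 1666, then 1750, 2416 and 1614, then 771, 929 and 890). Itgb4, the β4 integrin, was called without order, since its fall lay in the first step (396, 425 and 499, then 32, 23 and 35, then 52, 31 and 62).

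In the cell cycle list 4 genes rose and 5 fell of 39 tested, against 4.67% and 5.03% of all genes tested. Ccnd1, Cdk4, Cdk6 and Cdkn2a rose, of which Cdkn2a (slope 0.63) encodes an inhibitor of cyclin-dependent kinases, and Bub1, Bub1b, Ccnb2, Cdc25c and Pcna fell. Cdk6, a partner of cyclin D1, rose from 1376, 1176 and 1138 through 1598, 1615 and 1557 to 2080, 1859 and 2047 (adjusted p = 0.0013). Bub1b, a spindle checkpoint kinase, fell from 2624, 3005 and 3190 through 2175, 2231 and 2246 to 2022, 2114 and 1929. Among p53 targets 5 of 24 fell and 1 rose, against the same shares. Tnfrsf10b, a TRAIL death receptor, fell without overlap of lines from 630, 665 and 785 through 442, 421 and 461 to 260, 227 and 250 (slope -0.74 ± 0.06, adjusted p = 7.5e-05). Sesn1, a stress-induced regulator of mTORC1, fell only in the first step (606, 737 and 786, then 278, 330 and 287, then 279, 254 and 282).

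MAPK feedback genes gave 3 falling and 1 rising of 29 tested, against 5.03% and 4.67% of all genes tested. Dusp1, a phosphatase of MAP kinases, was at 707, 1058 and 1473, at 184, 178 and 206, and at 108, 99 and 62 (slope -1.78 ± 0.18, adjusted p = 0.00033), and Fos, an immediate early gene, at 1658, 3392 and 5883, at 809, 435 and 836, and at 613, 460 and 334. MC38-MOCK#2 samples differed by more than 3-fold among themselves in Fos. In the amino acid and ER stress list 5 of 32 rose and 1 fell, against the same shares. Shmt2, the mitochondrial serine hydroxymethyltransferase, was at 7133, 6731 and 5764, at 8711, 7528 and 8735, and at 13982, 14710 and 13149 (adjusted p = 0.00067), and Slc7a11, the cystine transporter, rose mainly in the first step (487, 535 and 705, then 1397, 1006 and 1371, then 1394, 1569 and 1887). Atf3, a stress-induced transcription factor, was the gene that fell (33, 72 and 116, then 67, 38 and 52, then 4, 8 and 7).

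Among chemokines and cytokines 4 fell and 1 rose with order of 23 tested, against 5.03% and 4.67% of all genes tested. Cx3cl1, the membrane-bound chemokine fractalkine, was at 189, 189 and 345, at 88, 52 and 77, and at 6, 8 and 16 (slope -2.25 ± 0.21, adjusted p = 0.00024), and Il15, a cytokine for T and NK cells, at 20, 25 and 35, at 11, 6 and 13, and at 2, 2 and 0. The samples of neighbouring lines did not overlap in either. Cxcl1, a neutrophil chemokine, fell in the first step (267, 352 and 316, then 79, 153 and 95, then 99, 138 and 65). Tgfb1 rose slightly (718, 685 and 752, then 904, 793 and 851, then 896, 868 and 1036, adjusted p = 0.034). Hypoxia and glycolysis genes gave 1 riser, Ldha, and 2 fallers of 31 tested, against 4.67% and 5.03% of all genes tested. In the list of stem cell genes 2 of 17 rose with order and none fell, against 4.67% and 5.03% of all genes tested. The risers were Myc and Sox9, a progenitor factor of the intestinal crypt (182, 215 and 332, then 382, 241 and 372, then 712, 662 and 1211). In the first step 8 of the 17 were higher and 2 lower (10.5% and 10.9% of all genes tested), and in the second 5 were higher and 5 lower (15.5% and 15.6%).

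Of genes that act on the same glycans as FUT9, sialyltransferases and enzymes of the acceptor held the most ordered calls by number. These 2 lists were also the largest of the 4, with 10 and 22 genes tested against 9 and 7. The shares over all genes tested were 4.67% rising and 5.03% falling. No other fucosyltransferase of 9 tested was called, where 11.6% of all genes were. Fut11 was lowest in the line labelled FUT4 (91, 94 and 109, then 27, 26 and 19, then 68, 76 and 78), and Fut8, the core fucosyltransferase, was at 168 to 338 in all 3 lines. In the GDP-fucose list Fuca1, the lysosomal fucosidase, was the single called gene of 7 (433, 496 and 523, then 349, 334 and 322, then 321, 292 and 311, adjusted p = 0.0097). Among 10 sialyltransferases tested 1 rose and 2 fell with order. In the first step 5 were higher and 1 lower (10.5% and 10.9% of all genes tested), and in the second 2 were higher and 7 lower (15.5% and 15.6%). St3gal6 fell in the second step (191, 190 and 183, then 131, 143 and 107, then 9, 16 and 5, adjusted p = 0.0028) and St3gal5, the GM3 synthase, over both (474, 529 and 488, then 354, 366 and 304, then 265, 278 and 271, adjusted p = 0.0012), while St3gal4 rose (384, 426 and 479, then 470, 475 and 447, then 627, 747 and 899, adjusted p = 0.014), a call lost without MC38-FUT9 sample 2 (adjusted p = 0.058).

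Enzymes that build the N-acetyllactosamine acceptor gave 2 rising and 2 falling genes of 22 tested, against the same shares. Mgat4b, which starts an N-glycan branch, rose in the second step (851, 918 and 952, then 983, 920 and 967, then 1933, 1905 and 1772, adjusted p = 0.0051). Mgat2 did so to a smaller extent (508, 583 and 645, then 600, 576 and 602, then 805, 773 and 780). B3gnt3, which extends such chains, was called but was highest in the line labelled FUT4 (202, 199 and 269, then 406, 319 and 391, then 25, 26 and 35), and its call was lost without any MC38-MOCK#2 or MC38-FUT9 sample (adjusted p = 0.054 to 0.146).

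Genes near the activated locus were examined within 1 Mb of the start of Fut9. None of the 7 tested was called on the trend, where 11.6% of all genes were. Over these 7, the first step gave 3 higher and none lower (10.5% and 10.9% of all genes tested). The second gave none higher and 3 lower (15.5% and 15.6%). Manea, Ndufaf4 and Ufl1 were higher in the line labelled FUT4 than in either other line. Manea, an endomannosidase, was at 232, 268 and 276, at 586, 488 and 548, and at 299, 275 and 323, with a first step of 1.06 (adjusted p = 0.00013), although Fut9 itself was higher in MC38-FUT9. Within 1 Mb of Fut4, 3 of 25 genes tested rose with order (4.67% of all genes tested), and 1 more was called (11.6% of all genes were). These were Taf1d (1407, 1301 and 1162, then 1402, 1461 and 1392, then 2369, 2288 and 2239), Cep295, Smco4 and 4931406C07Rik (225, 211 and 253, then 221, 198 and 221, then 521, 532 and 528). In these called genes the rise lay in the second step, and MC38-FUT9, not the line labelled FUT4, was the highest. Over all 25, the first step gave 7 higher and 2 lower (10.5% and 10.9% of all genes tested). The second gave 5 higher and 3 lower (15.5% and 15.6%). The mean log2 level of the 25 was 6.08 in MC38-MOCK#2, 6.58 in the line labelled FUT4 and 6.47 in MC38-FUT9. It was 6.16 to 6.47 in the other 15 samples. Exons of Taf1d overlap those of Cep295 by 77 bases and those of 4931406C07Rik by 235 on opposite strands, so their reads may not be separable.

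Among genes with ordered lines MC38-FUT9 stood beyond the 15 samples outside the trend in nearly as many as it overlapped with them. Of the 1000 rising genes, 492 (49.2%) had all 3 MC38-FUT9 samples above the other 15, against 8.01% of all genes tested. Of the 1077 falling genes, 499 (46.3%) had them below, against 7.36%. The choice of genes that are extreme in MC38-FUT9 enters this share. The line labelled FUT4 also lay beyond the 15 samples, on the same side as MC38-FUT9, in 47 rising and 34 falling genes. Plxna4 and Cacna1c were among them. For the line labelled FUT4 and MC38-FUT9 together, the share over all genes tested was not counted. Whether 47 and 34 exceed that share was therefore not tested. MC38-FUT9 overlapped with the 15 samples in 507 rising and 578 falling genes, as Plcb4, Myc, Col3a1 and Fos did.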

How the data were processed

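RNA of cultured MC38 cells was sequenced by the authors as single reads of 50 bases from a stranded poly(A) library. Reads were trimmed, aligned to GRCm38 with HISAT2 (2.0.4), sorted with SAMtools (0.1.19) and counted per Ensembl gene with featureCounts of Subread (1.5.0-p3). Reads that overlapped several genes were left out. The deposited table holds score values, whole numbers that the authors obtained by scaling each sample's counts with edgeR (3.18.1) and rounding. They are called normalized counts here. Because they are not raw counts, no count model was fitted.

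From these values log2(value + 1) was computed for genes with at most 6 zeros among the 9 samples. limma (3.58.1, R 4.3.3) was fitted with empirical Bayes moderation and a mean-variance trend, with the lines coded 0, 1 and 2. A fit with line as a factor gave both steps and the departure of the middle line from the midpoint. All fold changes are on the log2(value + 1) scale, which understates changes of low genes. Calls are at a Benjamini-Hochberg adjusted p below 0.05 over all 21394 genes tested. Where a line was at 0 in every sample, a floor of 3 normalized counts for the line mean gave a lower bound. Samples were grouped by their labels. Nothing in the labels says that the samples of a line were separate cultures, beyond their passages. The fit was tested on simulated data.

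The order of the lines, the gene lists and the rule for genes to name were chosen with earlier results of these data known. The rule took Fut9 and Fut4, the 12 rising and 12 falling genes of largest slope with ordered, non-overlapping lines and a mean of at least 10, up to 4 called members of each list by slope, and called genes within 1 Mb of Fut9 or Fut4. Other members named for contrast were picked after their values were seen. Alternatives were other pseudocounts, filters, scalings, variance models, codings of the lines and fits, a replicate block, passage as a covariate, and leaving out each sample. Promoter sequence was that of RefSeq (GRCm38.p6), with numpy (2.4.6) and pandas (2.3.3) for tables and matplotlib (3.10.9) for plots. Some list members are not reported here.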

Additional observations from a re-analysis of the deposited data

Results flagged for a closer look

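Krt20, a keratin of differentiated colon epithelium, did not follow the order of the lines and was outside the trend. It was at 448, 263 and 468 normalized counts in the line labelled FUT4, where the lowest sample was 263, at 2 or fewer in the 6 samples of MC38-MOCK#2 and MC38-FUT9, and at 0 to 44 in the other 15 samples.

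A signal for Fut9 was also present in samples outside the trend. Among the 15 samples of the other lines, none of which had Fut9 as its target, the highest value was 7, in an MC38-CMAS KO sample, while 7 of the 15 were at 0.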

How the results depend on the processing

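The trend gave 2483 calls. It gave 5667 with line as a factor, 5882 with all 8 lines in a single fit, 1462 with each line coded by its mean log2 Fut9, and 1069 with an absolute slope above 0.5. With line as a factor the departure of the middle line from a straight line is not counted as spread. Rising genes with ordered lines, 1000 in all, numbered 512 under the coding by Fut9 and 311 above the slope of 0.5, and the 1077 falling genes 585 and 544. Above a size of 0.5 the first step kept 2909 calls, the second 4395 and the departure from the midpoint 3236. With a sample left out, trend calls ran from 1091 to 2521, rising genes from 474 to 976, falling genes from 587 to 1036, calls of the first step from 3242 to 4304, of the second from 5351 to 7295 and of the departure from 4075 to 5947. Trend, rising and falling counts were lowest without an MC38-FUT9 sample: trend calls were 1122, 1091 and 1354 without samples 1, 2 and 3. Calls of the first step and of the departure were fewest without sample 1 of the line labelled FUT4. Without MC38-MOCK#2 sample 2 trend calls were 1579. Fewer samples entered these fits.

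The samples of the 3 lines share only a number, and no label says that a number marks a shared batch. Deviations of same-numbered samples correlated at -0.05 to 0.09, and 6 of 9 samples matched their own number best. With the block the trend gave 1707 calls, 784 rising and 870 falling with ordered lines.

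Slopes were followed over the settings for 86 genes taken by the naming rule, and not for the members named beside them. No slope of the 86 reversed, and 48 lost their call in at least 1 setting, 40 under the coding by Fut9 and 24 with a sample left out. The cause was not tested. Values of a few counts, as those of many falling genes in MC38-FUT9, are close to what 1 read contributes (0.756 to 1.33 normalized counts), so sizes of those changes are limited by depth.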

Other observations

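Several genes were extreme in the line labelled FUT4 rather than ordered by Fut9. They were picked after their values were seen. Pdgfrb, the receptor for PDGF-BB, was at 471, 581 and 1100 in MC38-MOCK#2, at 117, 117 and 135 in the line labelled FUT4 and at 671, 604 and 990 in MC38-FUT9. Panx1, a channel protein encoded within 1 Mb of Fut4, was at 149, 133 and 121, at 284, 302 and 276, and at 115, 135 and 126. Its neighbour 1700012B09Rik was at 0 in MC38-MOCK#2, at 18, 35 and 32 in the line labelled FUT4 and at 0, 1 and 3 in MC38-FUT9. Both were called higher in the first step by limma, while Fut4 itself stayed at 1 or 0. In Sox2, a pluripotency factor, it was MC38-MOCK#2 that stood apart, at 226, 231 and 205. The line labelled FUT4, at 717, 632 and 630, overlapped with MC38-FUT9, at 573, 613 and 702. Its trend was called without ordered lines (limma adjusted p = 0.013).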
